A study of Mus musculus with 6 samples.

Results

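Helper effector cytokines are the secreted products by which CD4+ T cells act on other cells. 10 of their genes were examined in Foxp3+ regulatory T cells (Treg): Il17a, Il17f and Il22 of type 17 cells, Ifng of type 1 cells, Il4, Il5 and Il13 of type 2 cells, Il21 of follicular helper cells, the T cell growth factor Il2, and the macrophage growth factor Csf1. Members were chosen by gene symbol, as every probe that the platform annotation assigns to one of these genes, which gave 11 probes (2 for Ifng) out of 45281 on the array. These are 10 of 19057 genes with a probe of 1 symbol. Treg of the colon lamina propria (cLP, 3 arrays) were compared with Treg of mesenteric lymph node (MLN, 3 arrays). The sort gate was TCRβ+CD4+Foxp3+ in both organs, and the cells came from steady-state C57BL/6 mice whose genotype is labelled Foxp3gfp in both groups. Age, sex and any pooling of animals are not given in the labels, nor is it said that samples of a group are separate animals, so the spread behind each p-value may be technical. RNA was amplified and labelled with biotin by a kit named TargetAmp2-Round.

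Foxp3 is known to hold the genes of effector cytokines in check in Treg, and Il2 is among the genes that it represses, so that Treg depend on interleukin 2 made by other cells. Some Treg of the gut nevertheless take up parts of the programs of helper lineages. In the type 17 program the nuclear receptor RORα acts with STAT3, downstream of the interleukin 6, 1 and 23 receptors, on the neighbouring Il17a and Il17f genes. In the type 1 program T-bet, encoded by Tbx21, and STAT4 act on Ifng.

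The proximal promoters of Il17a, Il17f and Ifng are shown because Il17a carried the clearest difference between the groups, Il17f is its neighbour and closest relative in the set, and Ifng had the next largest difference. Each window runs from 250 bases before to 50 bases after the RefSeq start of transcription (build GRCm38.p6), 5′ to 3′ along the gene. Capitals mark matches, on either strand, to AGGTCA, the core recognised by RORα and other nuclear receptors, and to TATAAA, the TATA box.
Il17a (chr1:20730655-20730954, + strand): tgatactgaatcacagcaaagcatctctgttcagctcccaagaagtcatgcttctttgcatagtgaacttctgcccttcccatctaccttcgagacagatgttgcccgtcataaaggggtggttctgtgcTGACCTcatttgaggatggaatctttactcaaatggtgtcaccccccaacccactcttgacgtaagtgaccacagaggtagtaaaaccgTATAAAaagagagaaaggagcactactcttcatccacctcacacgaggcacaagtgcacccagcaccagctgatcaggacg
Il17f (chr1:20784221-20784520, - strand): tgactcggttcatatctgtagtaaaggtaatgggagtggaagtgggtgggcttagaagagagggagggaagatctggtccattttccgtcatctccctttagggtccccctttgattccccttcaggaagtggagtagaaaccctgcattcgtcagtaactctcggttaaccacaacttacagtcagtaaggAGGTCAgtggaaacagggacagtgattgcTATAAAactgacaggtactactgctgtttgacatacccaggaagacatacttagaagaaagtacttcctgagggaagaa
Ifng (chr10:118440796-118441095, + strand): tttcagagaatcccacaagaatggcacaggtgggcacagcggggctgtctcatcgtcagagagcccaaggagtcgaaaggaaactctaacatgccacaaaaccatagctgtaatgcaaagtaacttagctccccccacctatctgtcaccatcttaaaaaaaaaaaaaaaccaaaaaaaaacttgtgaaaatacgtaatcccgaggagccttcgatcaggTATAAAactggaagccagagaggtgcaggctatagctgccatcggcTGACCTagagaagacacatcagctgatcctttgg
Promoter windows were found for all 10 genes, with 2 windows for Il4. AGGTCA or its reverse complement was present in 4 of 10 genes (Il17a, Il17f, Ifng and Il2), and in 16.3% of 32851 windows of all genes. In Il17a the match began at position -120 relative to the start of transcription, in Il17f at -58, and in Ifng within the transcribed part, at position 16. TATAAA was present in 6 of 10 genes and in 13.6% of all windows, and began at -31 in Il17a, -29 in Il17f and -30 in Ifng. Further motifs were searched on both strands. TGANTCA (AP-1) was found in 1 of 10 genes, Il17a, and in 7.81% of windows, TTCNNNGAA (STAT) in 2 of 10 genes and 8.30% of windows, and GGAAA (the NFAT core) in 9 of 10 genes and 61.3% of windows. A match describes the letters in the window and no binding.

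Depth on an array is set by signal over background. A probe counted as detected where its detection p was under 0.05, that is, where it was brighter than 95% of the negative control probes of that array. The share of all probes detected was 32.7% to 35.4% per array, and the lowest intensity detected was 114.9 to 158.5. The median intensity of detected probes over that of undetected ones was 3.69, 3.33 and 4.10 in the MLN and 2.61, 3.18 and 2.98 in the cLP, lower in each cLP array, and the part of this in the results was not tested. The cells carried the markers of their label: Foxp3, Cd4 and Cd3e were detected on all 6 arrays (adjusted p = 0.986, 0.841 and 0.105 for the difference, limma), though Cd3e passed as lower in cLP Treg in 3 of 15 alternatives. Of the 9 listed Treg and T cell genes, 3 were higher and 1 lower in cLP Treg, beside 11.9% and 20% of all genes. The higher ones were Ikzf2, Ctla4 and Tnfrsf18, and the lower one was Il2ra. Over 15 alternatives the adjusted p (limma) reached 0.125 for Ikzf2, 0.108 for Tnfrsf18 and 0.0507 for Il2ra, while Ctla4 kept its call. The number higher was 1 with no detection filter and with the replicate block. Cd3d, another CD3 chain gene, differed by -0.67 (adjusted p = 0.0558, limma). It passed as lower under several alternatives, among them median scaling and the authors' deposited values. Foxp3, at 13.59 ± 0.20 in MLN and 13.58 ± 0.26 in cLP Treg (mean log2 intensity ± SD, n = 3 each) by the brightest probe, had 4 measured probes, of which 1 pointed down and 3 up. Of the 16215 probes detected on at least 3 arrays, 31.9% passed the threshold for a difference between the groups (adjusted p under 0.05, limma), 14.5% as higher and 17.4% as lower in cLP Treg. Higher probes made up 45.5% of these calls, 29.4% with median scaling and 32.2% in the authors' deposited values, and the median difference over all these probes was -0.11, -0.36 and -0.16.

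The cytokine probes were detected in 23 of 66 combinations of probe and array. Il17a, Ifng by probe ILMN_2791459, Il13 and Csf1 passed the filter of detection on at least 3 arrays, which is 4 of 11 probes, against 35.8% of all probes. Il17f, Il22, Il4 and Il21 were not detected on any array, as held for 54% of all probes. Ifng by probe ILMN_2685712, Il2 and Il5 were each detected on 1 array. The MLN arrays detected 3, 4 and 2 of the 11 probes and the cLP arrays 5, 4 and 5. Detection on all 6 arrays, reached by 2 of the 11, held for 25.2% of all probes.

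**Figure D1:**
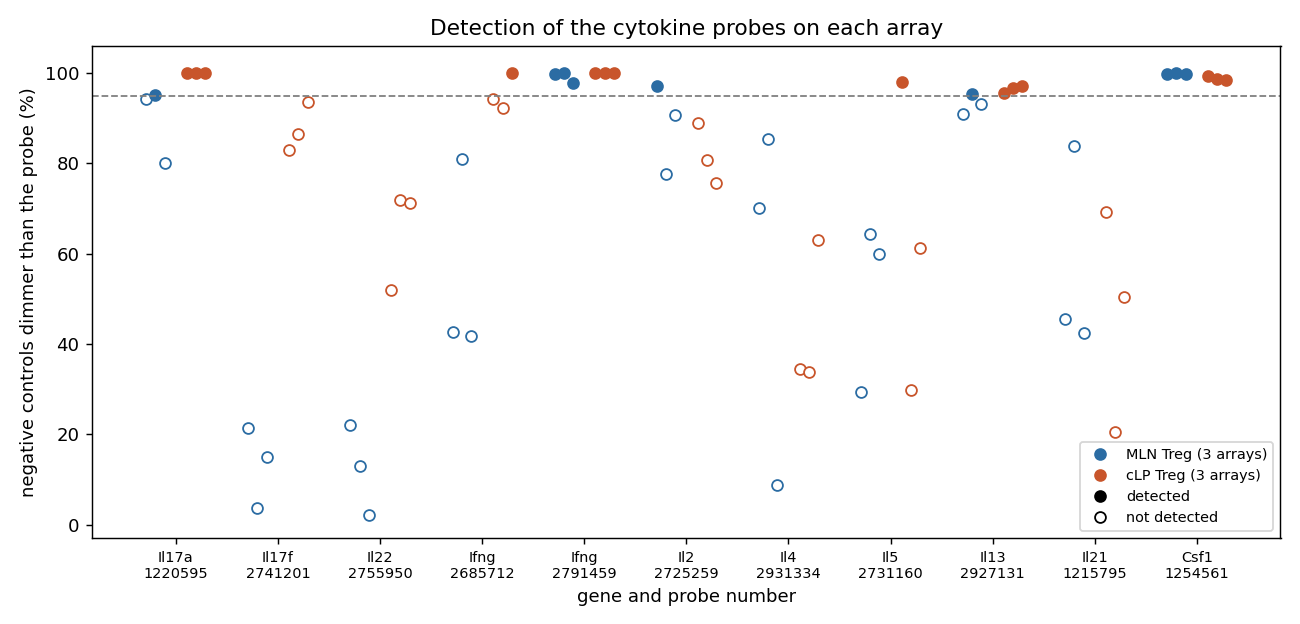
Percent of negative control probes dimmer than each cytokine probe (y axis) on each of the 6 arrays, by gene and probe number (x axis), with the detection threshold as a dashed line at 95%. Csf1 and Ifng probe ILMN_2791459 lie above the line on all 6 arrays, and Il17f, Il22, Il4 and Il21 on none.

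Il17a, which encodes the signature cytokine of type 17 helper cells (probe ILMN_1220595), was high in every cLP sample and near background in the MLN. Its intensity was 156.9, 156.4 and 101.4 in MLN samples 1 to 3 and 979.6, 553.9 and 619.4 in cLP samples 1 to 3. The probe exceeded 94.2%, 95.1% and 80.0% of negative controls in the MLN samples, so that it was detected on 1 MLN array, by a narrow margin, and exceeded 100% of them in each cLP sample. After background correction and quantile normalisation the log2 values were 5.49, 5.66 and 5.03 in the MLN and 9.97, 9.31 and 9.42 in the cLP. The groups did not overlap, a pattern in this direction that 20% of the filtered probes show.

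Il17a was 18.0-fold higher in cLP Treg (95% interval 11.4 to 28.4), a difference of 4.17 ± 0.28 on the log2 scale (± SE; limma, adjusted p = 0.000175), although part of the MLN mean is background. With each MLN array at its lowest detected signal where the probe was dimmer, a value computed after the levels were seen, the fold was 16.02. In RNA of a sorted population, fewer cells with a transcript and less transcript per cell cannot be told apart. Il17a passed the threshold under each of 16 alternatives run, with adjusted p from 0.000129 to 0.00195. The size depends on how background is treated, since the difference was 2.71 without background correction and 2.58 in the authors' deposited values. Il17a was the only one of the 4 filtered cytokine probes past the threshold, so that 1 of 4 stands against 31.9% of all filtered probes.

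Il17f, whose product forms dimers with interleukin 17A (probe ILMN_2741201), stayed below detection on every array. It exceeded 21.4%, 3.74% and 15.1% of negative controls in MLN samples 1 to 3 and 83.0%, 86.4% and 93.6% in cLP samples 1 to 3. All cLP shares were thus above all MLN shares within the range of background, which holds for 5.74% of probes detected on no array. The intensities as deposited overlapped between the groups. On the log2 scale the means were 4.59 ± 0.06 in MLN and 5.21 ± 0.18 in cLP Treg (SD, n = 3 each). In a fit on all 45281 probes, 8.28% were called, 3.79% as higher and 4.49% as lower. Il17f had an adjusted p of 0.0286 in it (limma), as 1 of 13 probes called higher among 24474 detected on no array (0.0531%). That call ended with the replicate block (adjusted p = 0.0999), without MLN sample 1, 2 or 3 (0.0985, 0.107 and 0.0926) and without cLP sample 2 (0.0762). With both groups below detection no fold is given.

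Il22, a cytokine that acts on epithelium (probe ILMN_2755950), was likewise detected on no array. It exceeded 22.0%, 12.9% and 2.14% of negative controls in MLN samples 1, 2 and 3. In the cLP it exceeded 52.0%, 71.9% and 71.3%. The cLP log2 values lay above the MLN ones here too, as for 5.41% of probes detected on no array, with means of 4.58 ± 0.08 and 4.88 ± 0.08, but the probe did not pass in the fit on all probes (adjusted p = 0.0969; 0.0296 to 0.268 over its alternatives, passing with a trended and robust variance). The Il22 intensities as deposited overlapped between the groups. Mouse carries a close copy of Il22, Iltifb, next to it, and whether the Il22 probe tells the copies apart was not examined. The probe named for Iltifb was not detected on any array either.

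**Figure D2:**
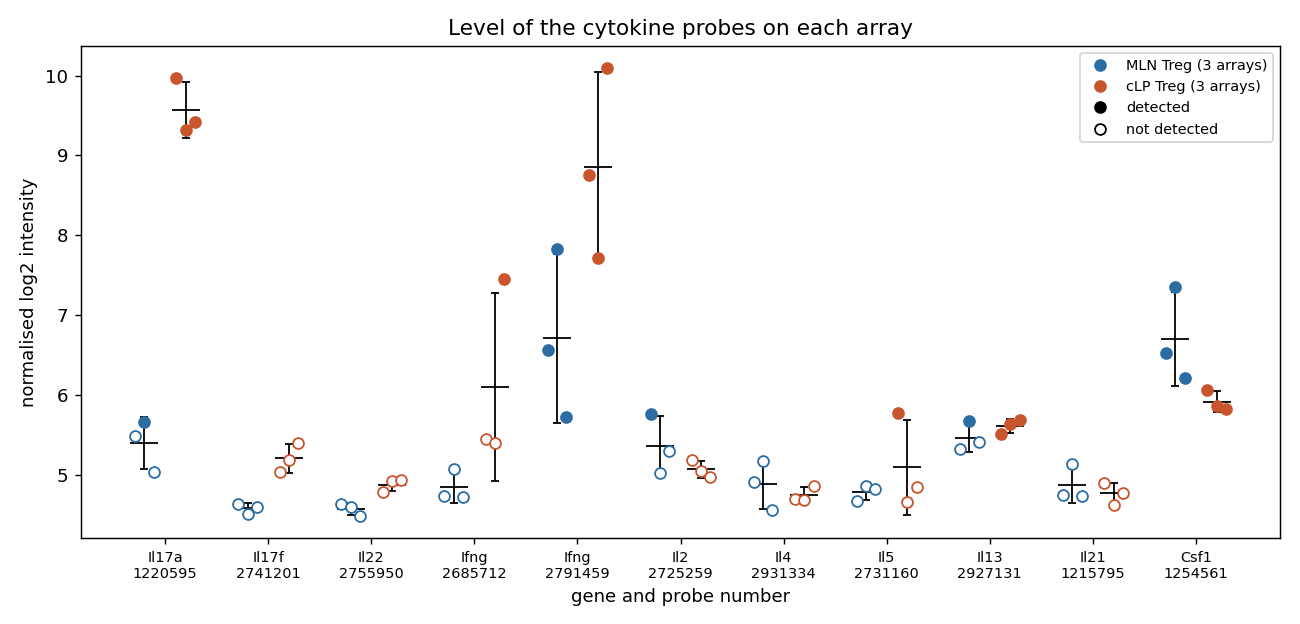
Normalised log2 intensity (y axis) of each cytokine probe on each array, by gene and probe number (x axis), with filled points for detected and open points for undetected values, and bars for the mean ± SD of 3 arrays. Il17a separates the groups by the widest gap, and Ifng probe ILMN_2791459 spreads from 5.73 to 10.09 across arrays and overlaps between groups.

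Ifng, the cytokine of type 1 helper cells, was detected on all 6 arrays by probe ILMN_2791459. Its intensity was 222.2, 339.7 and 131 in MLN samples 1 to 3 and 483.4, 240.7 and 937.8 in cLP samples 1 to 3. The log2 values were 6.57, 7.83 and 5.73 in the MLN and 8.76, 7.72 and 10.09 in the cLP. cLP sample 3 was the highest and MLN sample 3 the lowest, while MLN sample 2 lay above cLP sample 2, so the groups overlapped.

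The Ifng difference was 2.15 ± 0.70 on the log2 scale, or 4.43-fold (95% interval 1.42 to 13.8), and missed the threshold (limma, adjusted p = 0.0522; unadjusted p = 0.0169). It passed when 1 probe a gene was tested (adjusted p = 0.0492, in a fit that called 32.5% of genes, 12.1% as higher and 20.4% as lower), with a stricter detection threshold (0.045), with detection required on all arrays of a group (0.0454), with a trended and robust variance (0.0418), without MLN sample 2 (0.039) and without cLP sample 2 (0.0313). Over its 16 alternatives the adjusted p ran from 0.0313 to 0.207 and the difference from 1.38 to 2.75. The SD of the log2 values was 1.06 in MLN and 1.19 in cLP Treg (n = 3 each).

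The other Ifng probe, ILMN_2685712, was detected on 1 array only, cLP sample 3, where probe ILMN_2791459 was highest as well. It exceeded 42.6%, 81.0% and 41.9% of negative controls in the MLN and 94.3%, 92.2% and 100% in the cLP. The difference was 1.26 with a 95% interval of -0.21 to 2.72 (adjusted p = 0.335 in the fit on all probes), and 0.59 without cLP sample 3. Both probes gave the highest MLN value in sample 2.

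Cytotoxic T cells and natural killer cells also make Ifng. Of 5 measured genes of that marker list, 3 were higher and 0 lower in cLP Treg (Klrd1, Prf1 and Nkg7; Prf1 lost its call in 7 of 15 alternatives, with adjusted p up to 0.116), beside 11.9% and 20% of all genes, and the summed level of the 8 genes on the array was 19525 to 24342 in the MLN and 32244 to 33472 in the cLP. Nkg7, a granule protein of cytotoxic cells, had log2 values of 7.85, 8.46 and 7.53 in MLN samples 1 to 3. In cLP samples 1 to 3 it had 9.71, 9.25 and 10.51, the same order within each group as Ifng. Other orders were seen for Prf1 (MLN 13.83, 14.21 and 14.08, cLP 14.87, 14.82 and 14.75) and, in the cLP, for Klrd1 (6.27, 7.44 and 6.97). Klrd1 was not detected on any MLN array (4.72, 4.63 and 5.08), so its order there is one of background. It passed the detection filter only with the cLP arrays. Klrb1c differed by -0.53 without passing (adjusted p = 0.12, limma). The other CD8 chain gene, Cd8b1, was detected on all 6 arrays, at 12.28 in the MLN and 11.50 in the cLP (adjusted p = 0.064, and called lower in 6 of 15 alternatives). Cd8a, Eomes and Gzmk were not detected on any array. The part of these markers in the Ifng values was not tested.

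**Figure D3:**
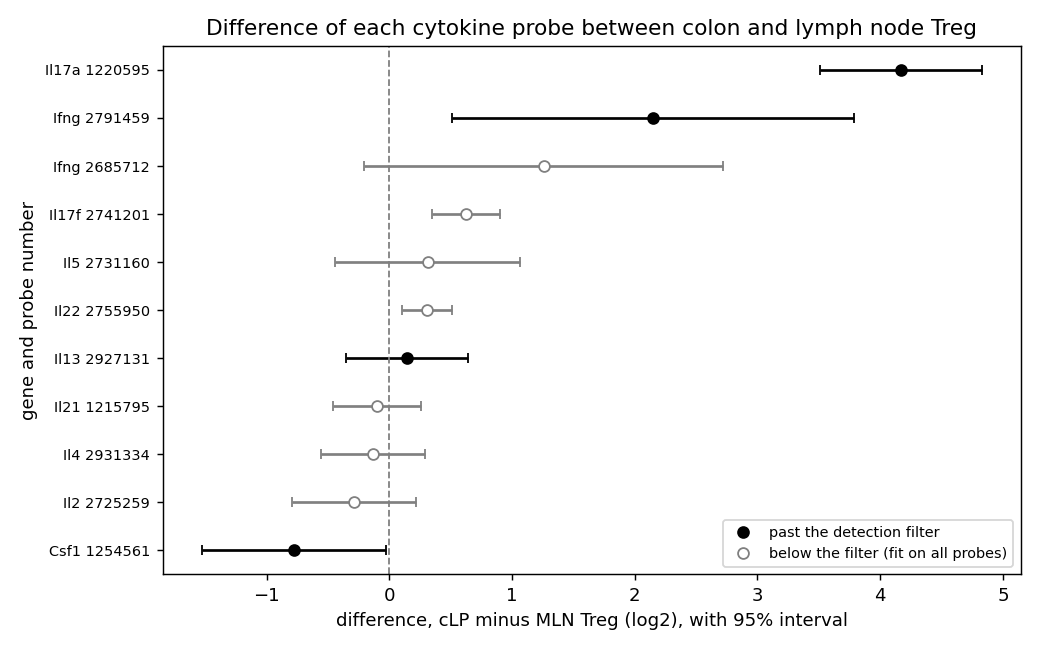
Difference between cLP and MLN Treg on the log2 scale with its 95% interval (x axis) for each cytokine probe (y axis), filled for probes past the detection filter and open for the others, which come from a fit on all probes. The interval of Il17a runs from 3.51 to 4.83, and that of Csf1 from -1.53 to -0.03.

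Among the type 2 cytokines, only Il13, which drives mucus secretion and acts on epithelium, passed the detection filter (probe ILMN_2927131). Its intensity was 149.6, 156.7 and 117.1 in the MLN and 155.2, 117.9 and 123.6 in the cLP, at the edge of detection throughout. The probe exceeded 91.0%, 95.3% and 93.1% of negative controls in the MLN and 95.5%, 96.7% and 97.2% in the cLP, and at a detection p under 0.01 it was detected on 0 arrays. The log2 difference was 0.14 ± 0.21 with a 95% interval of -0.35 to 0.64 (limma, adjusted p = 0.654), and the log2 values overlapped between groups.

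Il4, which drives type 2 differentiation (probe ILMN_2931334), exceeded 8.87% to 85.4% of negative controls in the MLN and 33.9% to 63.0% in the cLP, and was detected nowhere. Il5, a growth factor for eosinophils (probe ILMN_2731160), was detected on 1 array, cLP sample 1, at an intensity of 165.3, and exceeded 29.8% and 61.2% of negative controls in cLP samples 2 and 3. In the MLN it exceeded 29.5%, 64.3% and 59.9% of them. A difference between groups was not detectable for either gene at this signal (adjusted p = 0.783 and 0.701 in the fit on all probes), and no fold is given. Mast cells and group 2 innate lymphoid cells also make these cytokines. Of the mast cell and basophil list 1 gene was measured, Hdc, which was higher by 3.27 (adjusted p = 0.0143, and 0.0834 with no detection filter), while Cpa3, Fcer1a, Ms4a2 and Gata2 were detected on no array. The summed level of that list was 234 to 424 in the MLN and 762 to 2201 in the cLP, where most of it was Hdc (log2 values of 10.26, 10.97 and 9.16), and its part in these values was not tested. Of the group 2 innate lymphoid list, 0 of 1 measured genes passed.

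Il2 (probe ILMN_2725259) was detected on 1 array, MLN sample 1, at an intensity of 168.9. It exceeded 97.2%, 77.7% and 90.8% of negative controls in the MLN and 89.0%, 80.7% and 75.7% in the cLP, with an adjusted p of 0.561 for the difference in the fit on all probes. Il21, which helps B cells (probe ILMN_1215795), was detected on no array and exceeded 42.5% to 83.9% of negative controls in the MLN and 20.6% to 69.2% in the cLP (adjusted p = 0.813). For both genes the groups overlapped.

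Csf1, which encodes the growth factor that keeps macrophages alive (probe ILMN_1254561), was the other cytokine detected on all 6 arrays. Its intensity was 219.1, 272.8 and 155.8 in MLN samples 1 to 3 and 177.3, 125.7 and 128.7 in cLP samples 1 to 3. Normalised log2 values were 6.53, 7.36 and 6.21 in the MLN and 6.07, 5.86 and 5.83 in the cLP. All MLN values lay above all cLP values after normalisation, as for 26.5% of filtered probes, whereas the intensities as deposited overlapped.

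The Csf1 difference was -0.78 ± 0.32 on the log2 scale and did not pass the threshold (limma, adjusted p = 0.105; unadjusted p = 0.0431). Its 95% interval was -1.53 to -0.03. Over its 16 alternatives the adjusted p ran from 0.0525 to 0.269 without passing, and the difference was -0.46 without MLN sample 2, the highest sample, -0.39 without background correction and -0.34 in the authors' deposited values. Stromal cells also make Csf1. Of 5 measured stromal and endothelial genes 3 were higher and 0 lower in cLP Treg, beside 11.9% and 20% of all genes. Acta2 was at least 33.7-fold higher. Col3a1, not detected in the MLN, was at least 5.95-fold higher (adjusted p = 0.000877, limma). Both kept their calls in all 15 alternatives, but passed the detection filter only with the cLP arrays. Their place among the 5 measured genes thus depends on the group where they were higher. Sparc lost its call with no detection filter and without MLN sample 1, 2 or 3 (adjusted p up to 0.0624). Col1a1 and Pdgfrb were not detected on any array. The summed level of that list was 962 to 1190 in the MLN and 2380 to 3450 in the cLP, and its part in the Csf1 values was not tested.

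**Figure D4:**
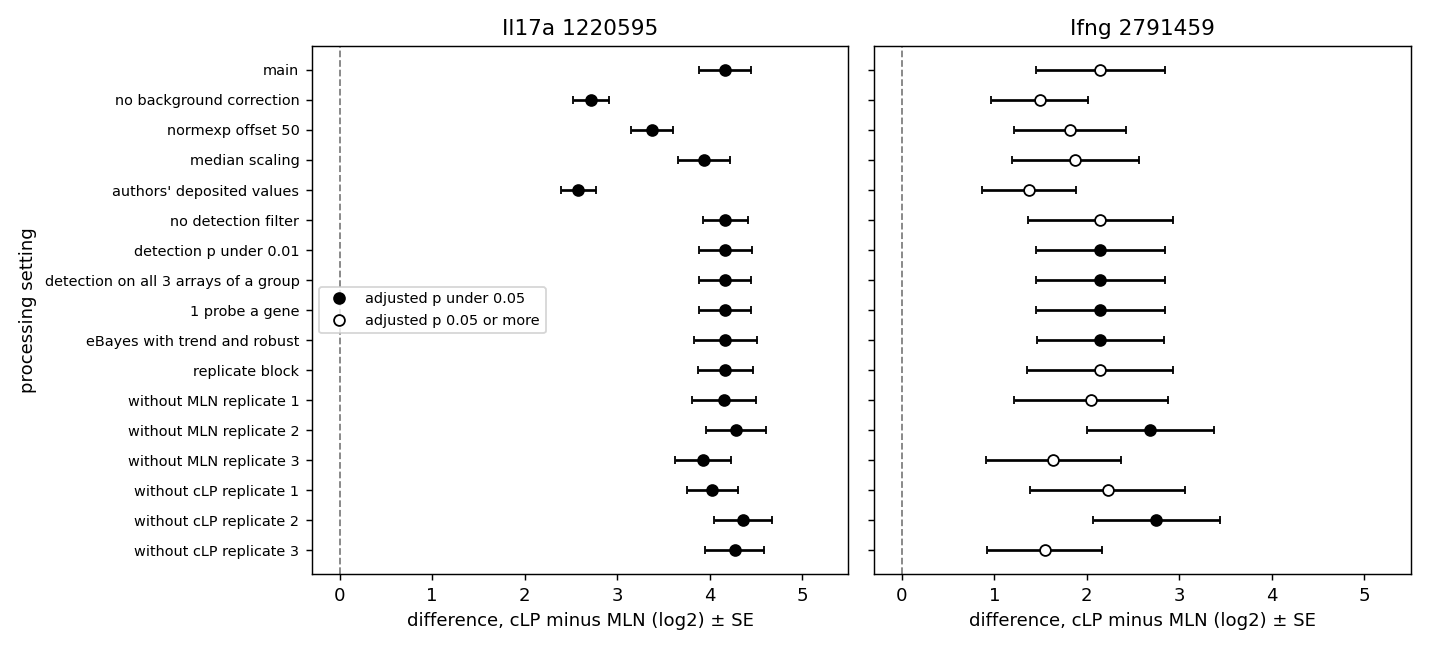
Difference of Il17a and of Ifng probe ILMN_2791459 between cLP and MLN Treg (log2 ± SE, x axes) under the main setting and 16 alternatives (y axis), filled where the adjusted p is under 0.05. Il17a is filled in each, and Ifng in 6 of the 16 alternatives.

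The receptors through which these cytokines act were partly measured. Of 9 measured receptor genes, 4 were higher and 2 lower in cLP Treg (3 to 4 and 1 to 2 over 15 alternatives), with a median difference of 0.29, beside 11.9% higher, 20% lower and a median of -0.21 over 9157 genes with 1 probe each. Both chains of the interferon gamma receptor rose, Ifngr1 by 2.42 ± 0.22 and Ifngr2 by 1.91 ± 0.24 (adjusted p = 0.00047 and 0.00157, limma). Il4ra, the chain shared by the interleukin 4 and 13 receptors, rose by 2.19 ± 0.24 (adjusted p = 0.000885). The 2 that fell, named after their values were seen, were Il2ra (-1.67 ± 0.36, adjusted p = 0.0121, and 0.0507 with no detection filter) and Il10rb (-0.82 ± 0.24, adjusted p = 0.0352). Another probe of Il10rb, a chain of the interleukin 10 and 22 receptors, passed in the opposite direction, and the call shown here ended in 6 of 15 alternatives, with adjusted p up to 0.121. Il2rb, the remaining gene called higher, lost its call in 9 of 15, with adjusted p up to 0.444. The remaining chain of the interleukin 22 receptor, Il22ra1, and Il17rc, Il13ra1 and Il5ra were not detected on any array.

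Regulators of the type 17 program were higher in cLP Treg in 7 of 9 measured genes and lower in 0, with a median difference of 2.38, beside 11.9% higher and 20% lower over all genes. Rora, Stat3 and the hypoxia factor Hif1a rose by 5.71, 3.92 and 3.59 (adjusted p = 0.000109, 0.0002 and 0.000399, limma), with Rora detected on 2 MLN arrays and Hif1a on 1. Il23r, the receptor chain for interleukin 23, was not detected in the MLN (log2 values 4.79, 4.72 and 4.66) and reached 7.19, 7.41 and 6.70 in the cLP, at least 2.90-fold higher (adjusted p = 0.000783). Il1r1, an interleukin 1 receptor, rose from 6.05, 6.29 and 6.98 to 9.28, 8.85 and 8.14, by 2.31 ± 0.37 (adjusted p = 0.0039). Earlier results of these data for most of these regulators were known when the list was made, so the count is not independent evidence.

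Il23r and Il1r1 are also markers of group 3 innate lymphoid cells, another source of Il17a and Il22. All 4 measured genes of that list were higher in cLP Treg (Il23r, Il1r1, Cxcr6 and Kit), beside 11.9% of all genes. Il23r was detected on no MLN array and Kit on 1, so both passed the detection filter only with the cLP arrays. Their place among the 4 measured genes thus depends on the group where they were higher. The summed level of the 5 genes of that list on the array was 934 to 1101 in the MLN and 3305 to 4775 in the cLP. Ncr1, a receptor that defines a subset of these cells, was not detected on any array. The call of Kit was lost on leaving out MLN sample 1 (adjusted p = 0.1), MLN sample 2 (0.0993), cLP sample 1 (0.0663) and cLP sample 2 (0.0709), with the replicate block (0.0577) and with no detection filter (0.132). Of the gamma delta and innate-like T cell list, 0 of 3 measured genes passed in either direction. Its genes Trdc and Tcrg-C were not on the array. Trgv4 differed by -2.13 (adjusted p = 0.0579, limma). It was called lower under some alternatives, among them median scaling and the authors' deposited values. The summed level of that list was 371 to 601 in the MLN and 201 to 381 in the cLP. Of the conventional helper T cell list 2 genes were measured, 1 higher and 1 lower, beside 11.9% and 20% of all genes. Il7r differed by 1.01 (adjusted p = 0.0257, limma, and up to 0.0926 over 15 alternatives) and Id3 by -2.72 (adjusted p = 0.000388). Cd40lg was not detected on any array, and Tcf7 was not on the array. The part of these markers in the values of Il17a and the other cytokines was not tested.

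Among regulators of the type 1 program, 3 of 4 measured genes were higher in cLP Treg and 0 lower, with a median difference of 1.27, beside the same 11.9% and 20%. The number higher was 2 with no detection filter and without MLN sample 2 or 3. Il18r1, a receptor chain for interleukin 18, rose by 1.40 ± 0.28, Tbx21 by 1.34 ± 0.31 and Stat4 by 1.19 ± 0.25 (adjusted p = 0.0084, 0.0155 and 0.0111, limma). Tbx21 had log2 values of 6.51, 6.07 and 6.33 in the MLN and 7.06, 7.79 and 8.09 in the cLP. Leaving out MLN sample 2 took its adjusted p to 0.0612, leaving out MLN sample 3 to 0.0519, and dropping the detection filter to 0.0507.

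In the type 2 list 3 of 6 measured genes were higher and 1 lower, and 2 and 2 with median scaling and in the authors' deposited values (2 to 3 and 0 to 2 over 15 alternatives), beside 11.9% and 20% of all genes. Maf, a transcription factor that acts on Il4 and Il10, was not detected in the MLN and was at least 5.43-fold higher (adjusted p = 0.00694). Stat5a rose by 1.68 ± 0.23 and Ecm1, a secreted matrix protein of type 2 cells, fell by 1.14 ± 0.26 (adjusted p = 0.00218 and 0.0139). The Ecm1 call ended without MLN sample 1 (adjusted p = 0.0568). Of 7 follicular and general regulators, 4 were higher and 1 lower (3 to 4 and 1 to 2 over 15 alternatives), beside the same shares. Bhlhe40, a factor that favours inflammatory cytokines, rose by 3.82 ± 0.23, Ikzf3 (Aiolos), which represses Il2, by 3.51 ± 0.31, and Nfatc1, which carries the calcium signal of the T cell receptor, fell by 3.12 ± 0.34 (adjusted p = 0.000116, 0.000413 and 0.000934).

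**Figure D5:**
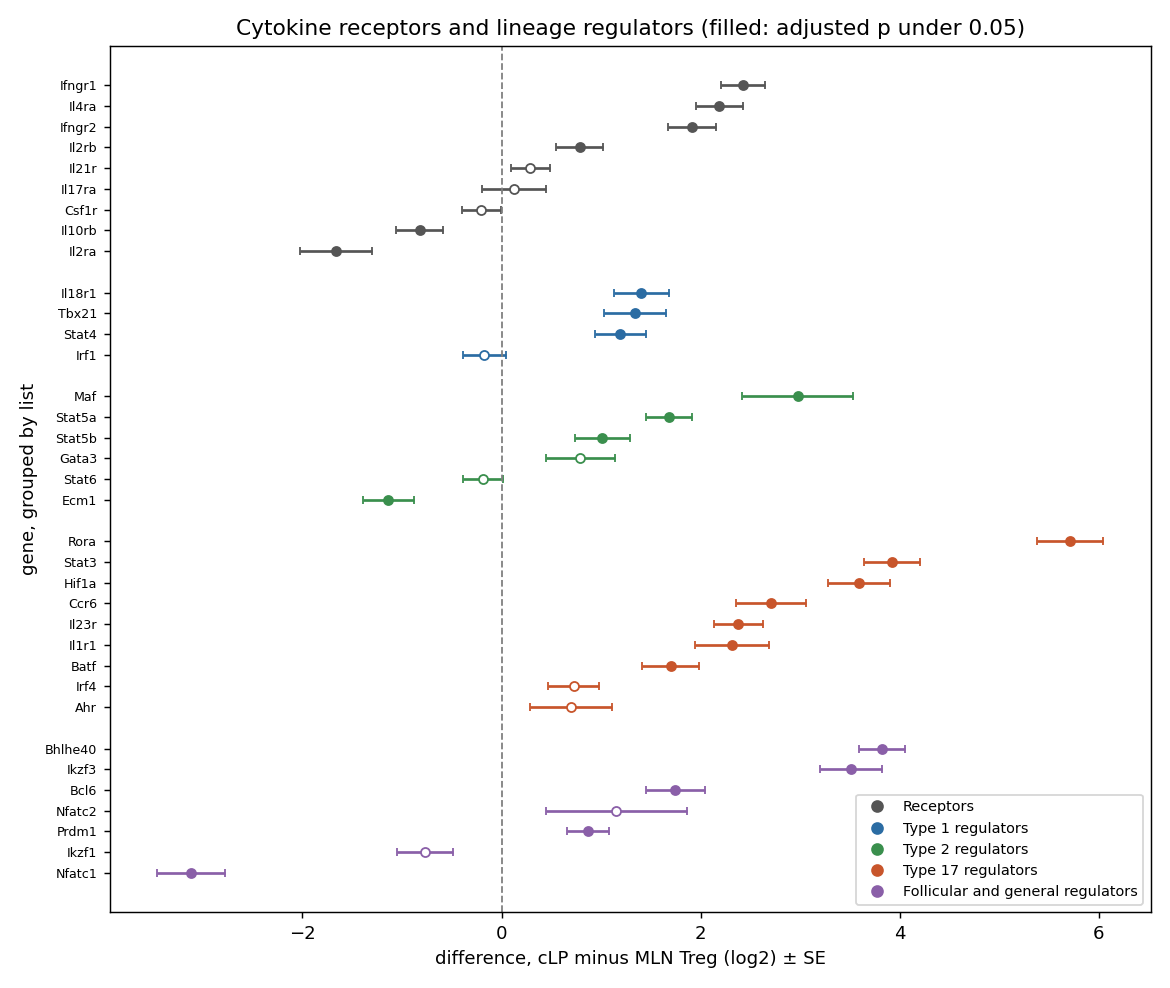
Difference between cLP and MLN Treg (log2 ± SE, x axis) of the measured cytokine receptors and lineage regulators (y axis), grouped by list and filled where the adjusted p is under 0.05. In the type 17 list 7 of 9 genes are filled, all to the right of 0, from Batf at 1.70 to Rora at 5.71.

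Among 18 other helper cytokine genes on the array, 11 were measured, with 3 higher and 3 lower in cLP Treg, beside 11.9% and 20% of all genes. Il10 rose by 5.20 ± 0.20, Ccl20, a chemokine that type 17 cells also make, was at least 3.25-fold higher, and the lymphotoxin Lta fell by 2.40 ± 0.33 (adjusted p = 5.39e-05, 0.00379 and 0.00221). Il3, Il9, Il27, Il12a and Csf2, the growth factor of granulocytes and macrophages, were not detected on any array. Over 15 alternatives 3 were higher and 3 to 4 lower.

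Genes were also ranked by how closely their 6 log2 values followed each measured cytokine (Pearson's r over 6 arrays and 9156 genes, a description). The 3 closest to Il17a were Raly, an RNA-binding protein (r = 0.999), the acyltransferase Glyat (0.999) and the orphan nuclear receptor Nr4a2 (0.998). As 799 genes had r above 0.9 with Il17a, this closeness is common where groups lie apart. Closest to Ifng were Cxcr3, a chemokine receptor of type 1 cells (r = 0.991), Serpinf1 (0.985) and Elac2 (0.974), with 105 genes above 0.9. Cxcr3 itself differed by 0.53 between the groups and did not pass (adjusted p = 0.176). Csf1 was followed most closely by Fhdc1 (0.988), Syngr4 (0.986) and Ift52 (0.982), with 146 genes above 0.9. Closest to Il13 were Syne3 (0.991), Ptar1 (0.986) and Pisd-ps3 (0.979), with 22 genes above 0.9. As the Il13 values lie at the edge of detection, their order may be one of background.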

How the data were processed

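Total RNA of 6 samples was measured on Illumina bead arrays, grouped by the organ named in each source label. MLN samples 1 to 3 are titled MSN Foxp3+ Treg, while their source labels read mesenteric lymph node (MLN). Per the submitters' processing notes, GenomeStudio 1.6.0 was used, and the deposited table gives an intensity per probe. Its second column per array is headed as a detection p-value but goes up with intensity (Spearman 0.991 or more). The deposited fraction was therefore taken as the share of negative controls that a probe outshines, and 1 minus it as the detection p. The deposited series matrix holds log2 values, each found to be the log2 intensity minus the log2 of its array's 75th percentile, without centring. Its column medians were -0.728, -0.607 and -0.848 in MLN and -0.596, -0.689 and -0.661 in cLP samples 1 to 3. All 45281 probes were matched between the tables by their values on 6 arrays (tolerance 0.1 in signal, largest difference 0.0347). The platform annotation gave 1 symbol to 34885 probes, several to 18 and none to 10378.

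Normexp correction from the detection p (offset 16) and quantile normalisation were run in limma 3.58.1 (R 4.3.3). Probes with detection p under 0.05 on at least 3 arrays were fitted one by one (lmFit, eBayes, cLP minus MLN) and adjusted by Benjamini-Hochberg over 16215 probes. Members below that filter were read from a fit on all probes. Genes of other lists are represented by their filtered probe with the highest mean. Some of these genes passed the filter only through the group where they were high. Counts of higher and lower genes therefore depend in part on the filter. A fold against a group with no detection is a bound, from the higher of each array's lowest detected signal and the probe's own value. Summed levels of marker lists are sums of linear normalised intensity. The fit was tested on simulated data. Named genes were all members, up to 3 called genes with the largest difference per list, defining markers of other cells, the 3 genes closest in pattern, and genes next to the members. The members, lists and tests were chosen with earlier results of these data known. Arrays that were left out in turn were renormalised without that array, with the same probes fitted. The number of arrays limits the precision, and no batch was fitted, as no source used here gives chip or scan.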

Additional observations from a re-analysis of the deposited data

How the results depend on the processing

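Il17a passed the threshold under each alternative run, with a difference of 3.93 to 4.36 when 1 array was left out. The number of cytokine probes past the threshold was 1, and 1 to 2 when 1 array was left out. It was 2, with Il17f added, with no detection filter, and 2, with Ifng added, at a detection p under 0.01, with detection on all arrays of a group, with 1 probe a gene and with a trended and robust variance. Under those 4 settings the Ifng difference stayed 2.15 while fewer or other probes entered the adjustment or the variance changed. Leaving out 1 array gave Ifng differences of 1.54 to 2.75. Over all probes 5166 passed, 2974 with 1 probe a gene, where fewer were tested, and 3126 to 5647 without 1 array. Without MLN sample 1 or 2 the count was 3126 or 3399. Detection of the cytokine probes fell from 23 to 13 of 66 at a detection p under 0.01. Il4 and Il21, which were not detected, turned to 0.037 and 0.030 in the authors' deposited values, and the cause was not tested. When 1 array was left out, Il4 ran from -0.29 to 0.0093, Il21 from -0.17 to 0.030 and Il5 from -0.029 to 0.53, the last turning without cLP sample 1, its 1 detected array.

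Samples share replicate numbers, but same-numbered samples did not deviate together (correlations of -0.17, -0.10 and -0.02), so the numbers were not read as pairs. The highest such correlation, 0.22, joined MLN sample 2 with cLP sample 1. With the replicate block 4238 probes passed, with 1 cytokine probe among them, Il17a (adjusted p = 0.00189). For the cytokines detected on 0 or 1 array, signal over background is the limit, since below an intensity of 114.9 to 158.5 a level cannot be told from background.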

Other observations

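Several of the cytokine genes lie next to each other. Of the measured genes around them some were called higher, some lower and others neither, beside 11.9% higher and 20% lower of all genes. Rap1b, Mdm1, Irf1, Ahcyl1 and Gstm5 were among those that did not pass (adjusted p = 0.262, 0.0644, 0.592, 0.217 and 0.328, limma). No trait of these loci is read from the calls. Order along the chromosome was taken from RefSeq (GRCm38.p6), in which Il17a and Il17f are neighbours. The gene beyond Il17f, Mcm3, a DNA replication factor, differed by -0.23 between cLP and MLN Treg, and the gene on the other side of Il17a, Pkhd1, by -0.11, and neither passed the threshold (limma, adjusted p = 0.637 and 0.764). Beside Ifng, the kinase gene Dyrk2 rose by 0.99 (adjusted p = 0.0119) and Cand1 differed by -0.43 (adjusted p = 0.269).

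Il4, Il13 and Il5 lie around Rad50, a DNA repair gene known to hold control elements of the type 2 cytokines. Rad50 was detected on all 6 arrays and fell by 1.15 (adjusted p = 0.0135), and Slc22a5, a carnitine transporter next to Irf1, fell by 2.08 (adjusted p = 0.00448). Kif3a, on the far side of Il4, differed by 1.79 ± 0.71 without passing (adjusted p = 0.095). Near Il2 and Il21, the gene Bbs12 was detected on the 3 MLN arrays and on 0 cLP arrays, with an adjusted p of 0.00392 for the lower value in cLP Treg.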
